A study of Naumovozyma castellii with 24 samples.

Results

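Cells of the budding yeast Naumovozyma castellii that lack both ROX1 and ROX2 were set against cells that lack ROX1 alone, which gives the change that came with losing ROX2 when ROX1 was already absent. The comparison rests on 4 of the 24 libraries of the series, chosen by their genotype and growth labels: 2 of rox1/rox2-/- cells and 2 of rox1-/- cells, described in the series as biological replicates. Both groups are of strain background DBP004 and were grown at 30 °C and 21% oxygen in YPD, a rich medium with glucose, to an A600 of 1 and then 2 h longer, with no CoCl2. All 4 libraries therefore come from cells without ROX1. Libraries of the same design served for reference: rox2-/- cells (3), WT cells (3), and rox1/rox2-/-, rox1-/- and WT cells (2 each) that received CoCl2 at 0.6 mM in the last 2 h, a treatment meant to imitate hypoxia. The 2 libraries of rox2-/- cells with CoCl2 were not compared but entered the shared fit, and so its estimate of spread. Whether each genotype is 1 clone or several is not given in the sources used here.

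In S. cerevisiae, Rox1 is an HMG-box repressor that is made when haem and oxygen are at hand and keeps hypoxic genes off, among them genes for haem and sterol synthesis and for alternative subunits of respiratory enzymes. It acts with the general repressor Tup1-Cyc8, beside other regulators of the oxygen and sterol response such as Mot3, Upc2 and Hap1. The title of the series names the ROX genes as controllers of the hypoxic response, and the comparison asks what ROX2 does in cells where ROX1 can no longer act. Gene roles below are those known from S. cerevisiae for the gene of the same symbol.

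The rox1/rox2-/- libraries held 6.97 M and 5.59 M gene counts, against 9.72 M and 11.38 M in the rox1-/- libraries. Levels are CPM (gene counts scaled to library size with TMM), and genes were tested with edgeR's quasi-likelihood test, adjusted by Benjamini-Hochberg over 5544 genes. A gene is called where its adjusted p is under 0.05. The 2 rox1-/- libraries differed more from each other than the 2 rox1/rox2-/- libraries did: the SD across genes of the log2 difference within the group was 0.198 for rox1/rox2-/- and 0.462 for rox1-/-. Reads outside genes made up 6.14% and 5.79% in rox1/rox2-/- libraries and 5.51% and 6.22% in rox1-/- libraries. The highest share in a library without CoCl2 was the 14.5% of rox2-/- replicate 3. Over all libraries in the fit it was the 19.9% of rox2-/- replicate 1 with CoCl2.

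ROX1 had 0 counts in both rox1/rox2-/- libraries and 1 and 0 counts in the rox1-/- libraries, against 221, 182 and 107 in rox2-/- and 216, 215 and 191 in WT. Both groups stood at or under the floor of 3 counts, so no fold is given. The annotation used here gives no gene the symbol ROX2. NCAS0E02010, a gene without a symbol, had 0 counts in both rox1/rox2-/- libraries, against 36 and 31 counts in rox1-/-. Its level over the rox1-/- group was 16.2-fold a floor of 3 counts over the rox1/rox2-/- group, without the counting error of the rox1-/- level. It was called lower in rox1/rox2-/- (adjusted p 0.0277, edgeR). It also had 0 counts in the 3 rox2-/- libraries, against 21, 18 and 19 in WT. With CoCl2 it had 0 counts in both rox1/rox2-/- libraries, against 44 and 27 in rox1-/-, a level 19.9-fold that floor. NCAS0E02010 was picked from its counts and is described here without being equated with ROX2.

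Of the genes beside these loci, NCAS0A11110 was called higher and MRPS5 missed the threshold. NCAS0A11110, which has no symbol and lies next to ROX1, had 33 and 49.5 CPM in rox1/rox2-/-, against 7.51 and 8.98 CPM in rox1-/-. Its log2 fold change was 2.31 (SE 0.42, adjusted p 0.0353, edgeR), the largest rise among called genes. Only cells without both genes had it this high in the libraries without CoCl2: rox2-/- had 1.21, 2.73 and 3.77 CPM and WT 3.98, 3.64 and 3.59 CPM. With CoCl2 the groups overlapped, with 70.7 and 126 CPM in rox1/rox2-/- and 80.9 and 35.1 CPM in rox1-/-. MRPS5, for a protein of the mitochondrial ribosome, lies next to NCAS0E02010 and had 87.5 and 79.2 CPM in rox1/rox2-/-, against 38.1 and 46.9 CPM in rox1-/-. Its adjusted p of 0.0636 (edgeR) missed the threshold. Its level followed the ROX2 label also where ROX1 was present, with 69.5, 79.7 and 89 CPM in rox2-/- and 48.2, 48.4 and 49.3 CPM in WT (adjusted p 0.17, edgeR), and the groups did not overlap in either pair. Over all genes, 32.2% were higher in rox1/rox2-/- than in rox1-/- without overlap, and for rox2-/- against WT that share was not counted. None of the other genes within 3 places of either locus was called. BIM1, on the other side of NCAS0E02010, had 48.4 and 45.3 CPM in rox1/rox2-/- and 31.2 and 36.8 CPM in rox1-/- (log2 fold change 0.46, adjusted p 0.108, edgeR).

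**Figure D1:**
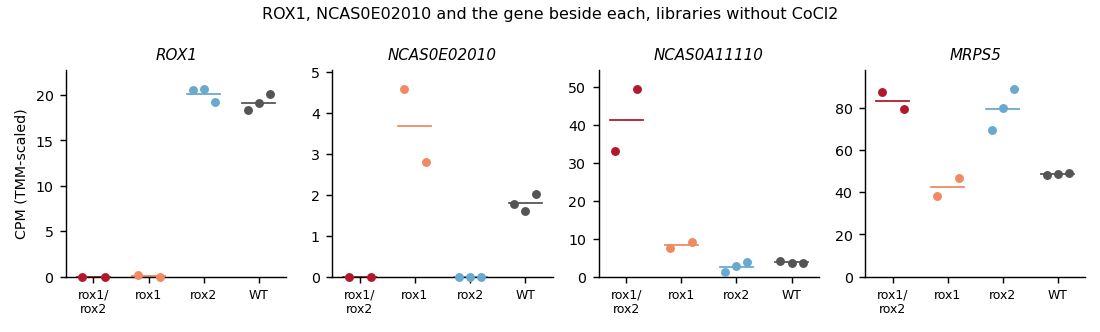
Levels (CPM, TMM-scaled, linear axes from 0) of ROX1, NCAS0E02010 and the gene beside each in the 10 libraries without CoCl2; points are libraries and lines are group means. NCAS0A11110 is highest in rox1/rox2, at 33 and 49.5 CPM, while MRPS5 is higher in both groups without ROX2 than in rox1 and WT.

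Between rox1/rox2-/- and rox1-/- cells, 18 genes were called (0.325% of those tested), 9 of them higher (0.162%) and 9 lower (0.162%) in rox1/rox2-/-. In all 18 the 2 groups did not overlap, 13 differed at least 2-fold, and 7 have no symbol. Over all genes tested, 32.2% were higher and 30.6% lower without overlap. The genes that rose with a symbol were CAR1, SSP2, COX9, DAP1, SIS1, APN1 and MAG1, and those that fell were ARG3, MAE1, ARG56 and ATG41. At an unadjusted p under 0.05 there were 577 genes higher (10.4%) and 571 lower (10.3%). These shares are the reference for the list counts given below at that level. For 16 of the 18 the WT mean lay between the rox1/rox2-/- and the rox1-/- mean. The 18 were chosen for a wide gap between these 2 groups, which makes such a place of WT likely. The share over all genes was not counted, so no conclusion is drawn from it. The genes where WT did not lie between were ATG41 and NCAS0A11110, whose WT means lay below both.

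The number of calls turned on the libraries in the fit. It was 0 without either rox1/rox2-/- library or without rox1-/- replicate 1, where 562, 604 and 514 genes had an unadjusted p under 0.05 (edgeR), and 506 without rox1-/- replicate 2. It was 1, 3 and 3 without WT replicate 1, 2 and 3, 96 without rox2-/- replicate 3, and 28 without either rox1/rox2-/- library with CoCl2. A fit to the 10 libraries without CoCl2 called 826 genes of 5503 (15.0%), 324 higher (5.89%) and 502 lower (9.12%), and these included all 18. All 18 kept their sign in every fit made. As the 2 groups did not overlap in any of the 18, this was likely from their selection and is no separate support.

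**Figure D2:**
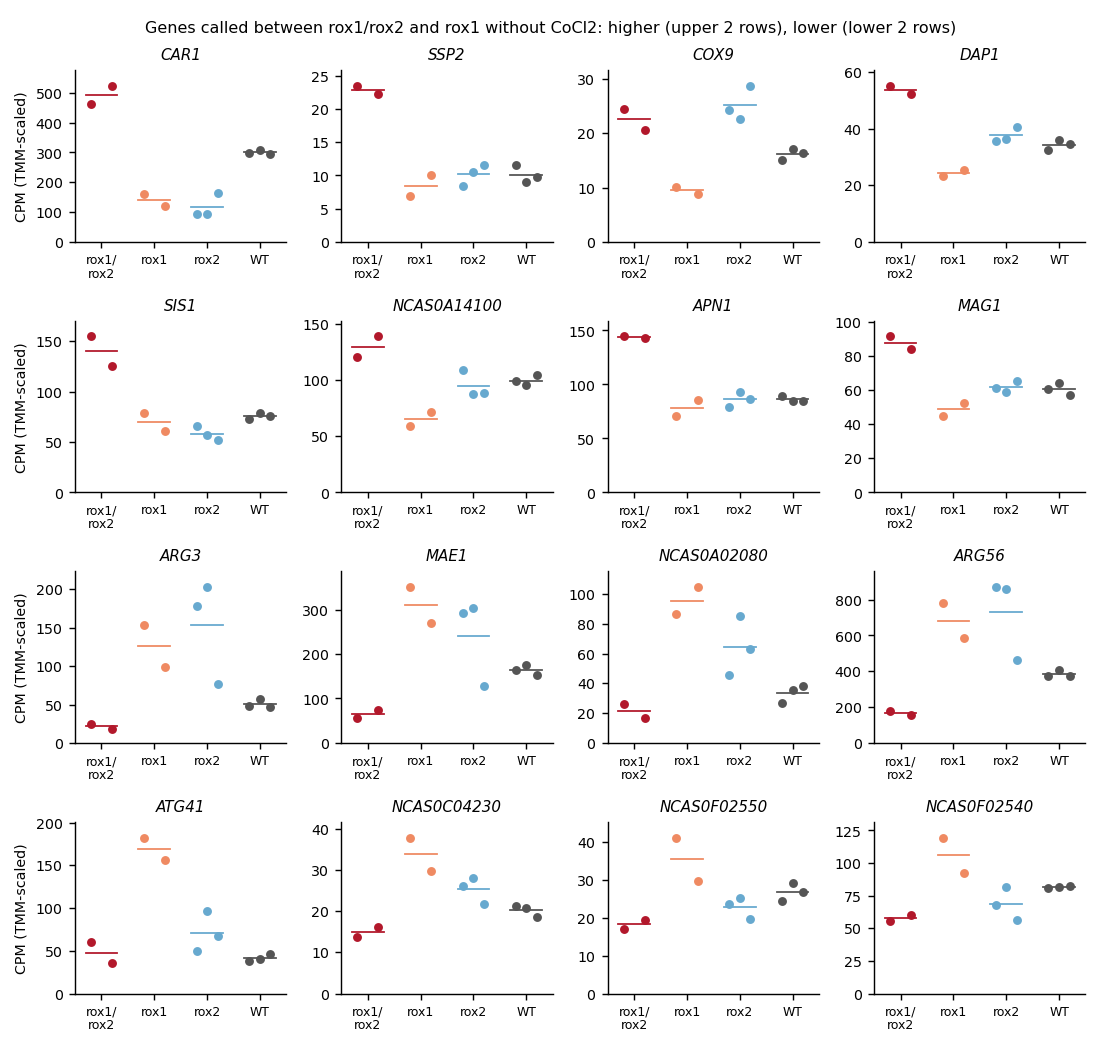
Levels (CPM, TMM-scaled, linear axes from 0) of 16 of the 18 called genes in libraries without CoCl2; points are libraries and lines are group means. The 8 higher genes fill the upper 2 rows and the 8 lower genes the lower 2 rows, and in each panel both rox1/rox2 points lie on one side of both rox1 points.

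The arginine pathway held both the largest fall and the largest rise among called genes with a symbol. ARG3 and ARG56, which make arginine, fell in rox1/rox2-/- cells, and CAR1, which breaks it down, rose. ARG3, for ornithine carbamoyltransferase, which turns ornithine into citrulline, had 24.9 and 18.2 CPM in rox1/rox2-/-, against 153 and 98.5 CPM in rox1-/-. It fell by 2.53 on the log2 scale (SE 0.36, adjusted p 0.0188, edgeR). ARG56, whose product is cleaved into the acetylglutamate kinase and reductase of ornithine synthesis, had 178 and 153 CPM in rox1/rox2-/-, against 782 and 584 CPM in rox1-/- (log2 fold change -2.04, SE 0.32, adjusted p 0.0256, edgeR). Both rox1/rox2-/- libraries lay below the 3 WT libraries in both genes, and both rox1-/- libraries lay above them: WT had 48.6, 57.8 and 47 CPM of ARG3 and 375, 406 and 374 CPM of ARG56. CAR1, for arginase, the first enzyme of arginine breakdown, had 462 and 524 CPM in rox1/rox2-/-, against 160.2 and 121 CPM in rox1-/-, with 299.6, 309 and 294 CPM in WT. It rose 3.51-fold (log2 fold change 1.81, SE 0.33, adjusted p 0.0353, edgeR).

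Other members of the pathway had gaps of similar direction but missed the threshold. CAR2, for ornithine transaminase, the next step of breakdown, had 767 and 831 CPM in rox1/rox2-/- and 369.9 and 329 CPM in rox1-/- (log2 fold change 1.19, adjusted p 0.0636, edgeR). ARG8, for acetylornithine aminotransferase, had 68.4 and 64.8 CPM in rox1/rox2-/- and 179 and 159 CPM in rox1-/- (log2 fold change -1.34, adjusted p 0.0636, edgeR). ARG1, for argininosuccinate synthetase, had 284 and 257 CPM in rox1/rox2-/- and 739.6 and 498 CPM in rox1-/-. In each of these the groups did not overlap, which also held for 32.2% of all genes as higher and 30.6% as lower. ARG4, for the last enzyme of synthesis, and ARG2, for the first, had log2 fold changes of -0.03 and -0.05. The regulators ARG80 and ARG81 had log2 fold changes of 0.05 and 0.04. Of the 22 arginine and proline genes tested, 1 was called higher and 2 lower. At an unadjusted p under 0.05, 6 were higher and 5 lower, and in the fit to 10 libraries 3 were called higher and 5 lower. Members went both ways, and the median log2 fold change of the list was 0.04, against 0.00 over all genes.

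**Figure D3:**
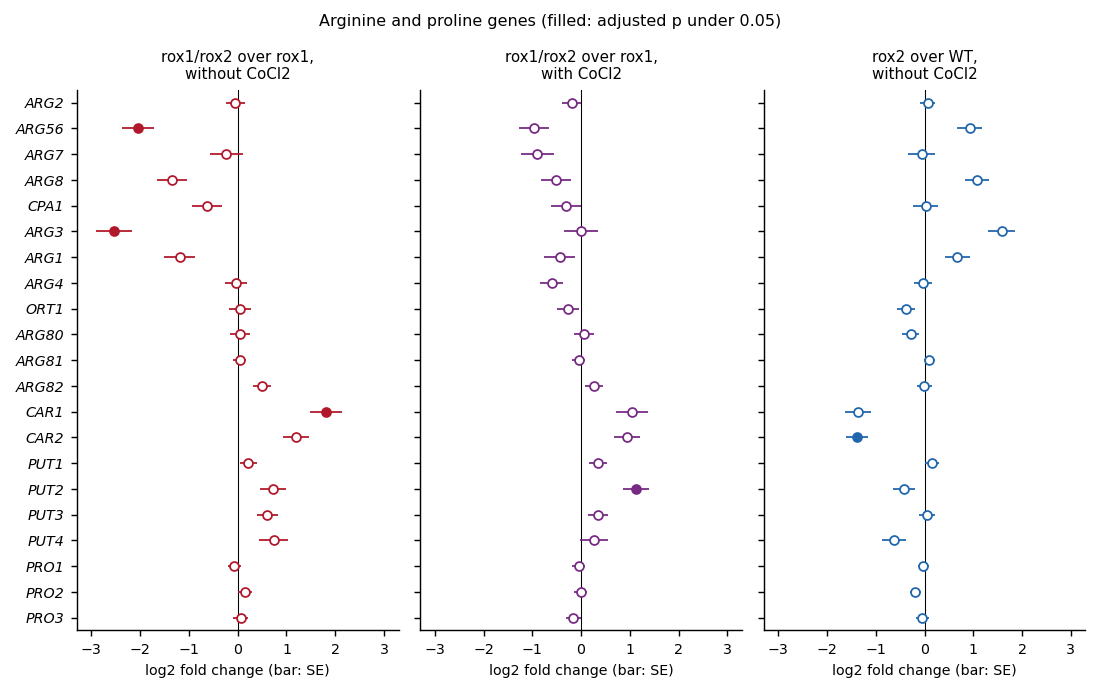
Log2 fold changes (points) with their SE (bars) of 21 of the 22 arginine and proline genes tested in rox1/rox2 over rox1 without CoCl2, the same with CoCl2, and rox2 over WT. ARG3 stands at -2.53, 0.00 and 1.58 in the 3 panels and CAR1 at 1.81, 1.04 and -1.36.

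In related nitrogen and amino acid metabolism no gene was called. GCN4, the activator of amino acid synthesis genes, had 479.9 and 444 CPM in rox1/rox2-/- and 1378 and 747 CPM in rox1-/- (log2 fold change -1.20, adjusted p 0.0675, edgeR). DUR12, for urea amidolyase, which degrades the urea that arginase releases, had 55 and 67.1 CPM in rox1/rox2-/- and 30.7 and 40.9 CPM in rox1-/- (log2 fold change 0.77, adjusted p 0.0636, edgeR). DAL80, a GATA repressor of nitrogen catabolic genes, had 1.06 and 0.645 CPM in rox1/rox2-/- and 5.22 and 4.04 CPM in rox1-/-. Of 55 genes for the synthesis of other amino acids, none was called, and 1 was higher and 12 were lower at an unadjusted p under 0.05. In the fit to 10 libraries 1 was called higher and 10 lower. The median log2 fold change was -0.24, and -0.06 without rox1-/- replicate 1. With scaling by total counts it was 0.08, where the median of all genes moved to 0.30. Relative to all genes the list then stood at -0.22. THR1, for homoserine kinase, had 168 and 182 CPM in rox1/rox2-/- and 439.7 and 302 CPM in rox1-/-. Of 27 nitrogen catabolite genes, 4 were higher and 2 lower at an unadjusted p under 0.05, against 10.4% and 10.3% of all genes.

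MAE1, for the mitochondrial malic enzyme, which makes pyruvate from malate, was among the strongest falls. It had 56.5 and 73.1 CPM in rox1/rox2-/-, against 351 and 269.6 CPM in rox1-/- (log2 fold change -2.26, SE 0.40, adjusted p 0.0353, edgeR). WT had 164, 176 and 152 CPM, between the 2 groups. ATG41, an autophagy gene, had 60.6 and 35.2 CPM in rox1/rox2-/-, against 182 and 156 CPM in rox1-/- (log2 fold change -1.82, SE 0.33, adjusted p 0.0353, edgeR). The rox1/rox2-/- libraries lay on either side of the WT libraries, at 37.7, 40.4 and 45.7 CPM, while both rox1-/- libraries lay far above them. Of 34 autophagy genes, ATG41 was the only one called, 11 others were higher and none of the others lower at an unadjusted p under 0.05, and the median log2 fold change was 0.37. ATG31, part of the complex that starts autophagosomes, had 14.1 and 12.7 CPM in rox1/rox2-/- and 7 and 6.65 CPM in rox1-/- (adjusted p 0.0652, edgeR).

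The other 4 genes that fell have no symbol. NCAS0A02080 had 25.9 and 16.8 CPM in rox1/rox2-/-, against 86.3 and 105 CPM in rox1-/- (log2 fold change -2.16, SE 0.35, adjusted p 0.0277, edgeR). NCAS0C04230 had 13.6 and 16.1 CPM in rox1/rox2-/-, against 37.8 and 29.6 CPM in rox1-/- (log2 fold change -1.18). NCAS0F02540 and NCAS0F02550 are neighbours in the annotation and the only pair of adjacent genes that were both called. NCAS0F02540 had 56 and 60.0 CPM in rox1/rox2-/-, against 119.6 and 92.6 CPM in rox1-/-, and NCAS0F02550 had 17.2 and 19.5 CPM in rox1/rox2-/-, against 41.3 and 29.6 CPM in rox1-/-. Their log2 fold changes were -0.87 and -0.95 (adjusted p 0.0454 and 0.0407, edgeR). UTH1, for a mitochondrial and cell wall protein of the SUN family, had 1007 and 919.8 CPM in rox1/rox2-/- and 3747 and 1919 CPM in rox1-/-, and it missed the threshold (log2 fold change -1.56, adjusted p 0.0508, edgeR).

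DAP1 had the smallest adjusted p of all genes. It encodes a haem-binding protein that helps the cytochrome P450 enzymes of sterol synthesis and takes part in resistance to DNA damage by methylation. It had 55.2 and 52.1 CPM in rox1/rox2-/-, against 23.2 and 25.2 CPM in rox1-/-, a 2.21-fold rise (log2 fold change 1.15, SE 0.15, adjusted p 0.0115, edgeR). DAP1 had 35.8, 36.5 and 40.8 CPM in rox2-/- and 32.4, 36 and 34.6 CPM in WT. MAG1 and APN1, which act in base excision repair, rose as well. MAG1, the glycosylase that removes methylated bases, had 91.5 and 84.2 CPM in rox1/rox2-/-, against 45.1 and 52.3 CPM in rox1-/- (log2 fold change 0.85, SE 0.13, adjusted p 0.0256, edgeR). APN1, the endonuclease that cuts the abasic sites which Mag1 leaves, had 144 and 143 CPM in rox1/rox2-/-, against 70.4 and 85.5 CPM in rox1-/- (log2 fold change 0.88, SE 0.15, adjusted p 0.0353, edgeR). Levels of MAG1 and APN1 overlapped between rox2-/- and WT, at 61, 59 and 65.2 CPM in rox2-/- and 60.5, 64.1 and 57.4 CPM in WT for MAG1. These genes were not in a list, so no count stands behind them as a group.

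SIS1, an Hsp40 partner of the Ssa chaperones, had 155 and 125 CPM in rox1/rox2-/-, against 78.7 and 61.3 CPM in rox1-/- (log2 fold change 1.00, SE 0.19, adjusted p 0.0426, edgeR). It was the 1 call among 32 heat shock and chaperone genes, of which 13 were higher and 1 lower at an unadjusted p under 0.05 and 12 higher and 1 lower in the fit to 10 libraries. The median log2 fold change of the list was 0.33, with 0.32 to 0.56 when 1 library of the 2 groups was left out, the highest without rox1-/- replicate 2. STI1, a cochaperone that joins Hsp70 to Hsp90, had 755 and 793 CPM in rox1/rox2-/- and 330.3 and 370.0 CPM in rox1-/- (log2 fold change 1.14, adjusted p 0.0636, edgeR). MDJ1, an Hsp40 of the mitochondrial matrix, had 293 and 289.6 CPM in rox1/rox2-/- and 164 and 141 CPM in rox1-/- (adjusted p 0.0717, edgeR). HSF1, for the heat shock transcription factor, was the 1 lower member, with 114 and 122 CPM in rox1/rox2-/- and 182 and 147 CPM in rox1-/- (adjusted p 0.139, edgeR). It was singled out after its values were seen.

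No proteasome gene was called. Of 38, 13 were higher and 1 lower at an unadjusted p under 0.05, 9 were called higher in the fit to 10 libraries, and the median log2 fold change was 0.29 (0.45 without rox1-/- replicate 2). PUP3, a catalytic-core subunit, had 185 and 163 CPM in rox1/rox2-/- and 90.7 and 97 CPM in rox1-/- (log2 fold change 0.89, adjusted p 0.0525, edgeR). In S. cerevisiae these genes are driven by RPN4. It had 139 and 121 CPM in rox1/rox2-/- and 151 and 224 CPM in rox1-/- (log2 fold change -0.53, adjusted p 0.311, edgeR), a value taken after it had been seen. A link between RPN4 and the proteasome genes was not tested here.

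The list with the highest median was that of the respiratory chain and ATP synthase. COX9, for cytochrome c oxidase subunit VIIa, had 24.6 and 20.6 CPM in rox1/rox2-/-, against 10.1 and 8.89 CPM in rox1-/- (log2 fold change 1.26, SE 0.25, adjusted p 0.0497, edgeR). It was the 1 call among 39 genes. At an unadjusted p under 0.05, 16 of the 39 were higher and none lower, and 15 were called higher in the fit to 10 libraries. In 31 of the 39 both rox1/rox2-/- libraries lay above both rox1-/- libraries, which held for 32.2% of all genes. The median log2 fold change was 0.58, with 0.44 to 0.71 when 1 library was left out. ATP20, a subunit of ATP synthase, had 37.4 and 37.1 CPM in rox1/rox2-/- and 6.11 and 14.7 CPM in rox1-/- (log2 fold change 1.81, adjusted p 0.0636, edgeR). PET9, the major ADP/ATP carrier of mitochondria, had 127 and 130.0 CPM in rox1/rox2-/- and 48.8 and 62.9 CPM in rox1-/- (log2 fold change 1.20, adjusted p 0.0508, edgeR). HAP4, the activator subunit of the factor that turns on respiratory genes in S. cerevisiae, had 24.7 and 26.9 CPM in rox1/rox2-/- and 69 and 66.8 CPM in rox1-/- (log2 fold change -1.40, adjusted p 0.23, edgeR). HAP2, HAP3 and HAP5, other subunits of that factor, had log2 fold changes of -0.456, 0.235 and 0.518, and none of these was called. HAP4 was named after its values were seen, and a link to the respiratory genes was not tested.

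Reserve carbohydrate genes had the next highest median, 0.49 over 16 genes (0.75 without rox1-/- replicate 2), of which 7 were higher and none lower at an unadjusted p under 0.05. GSY1, for glycogen synthase, had 115 and 104 CPM in rox1/rox2-/- and 18.1 and 13.6 CPM in rox1-/-, one of the widest gaps among named genes (log2 fold change 2.80, SE 0.71, adjusted p 0.0675, edgeR). GLC3, the glycogen branching enzyme, had 157 and 172 CPM in rox1/rox2-/- and 59.3 and 66.8 CPM in rox1-/- (adjusted p 0.0942, edgeR). ALD4, for the mitochondrial aldehyde dehydrogenase, had 303 and 268 CPM in rox1/rox2-/- and 87.5 and 79 CPM in rox1-/- (log2 fold change 1.78, adjusted p 0.0636, edgeR). Of 20 TCA cycle genes, 3 were higher and 1 lower at an unadjusted p under 0.05, against 10.4% and 10.3% of all genes. Their median was 0.41.

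The remaining genes that rose were SSP2 and NCAS0A14100. SSP2, which S. cerevisiae uses to build the spore wall, had 23.5 and 22.3 CPM in rox1/rox2-/-, against 6.88 and 10.1 CPM in rox1-/- (log2 fold change 1.42, SE 0.26, adjusted p 0.0353, edgeR). It was the 1 call among 40 genes of meiosis and sporulation. Of these, 4 were higher and 1 lower at an unadjusted p under 0.05, against 10.4% and 10.3% of all genes. NCAS0A14100, without a symbol, had 120.5 and 139 CPM in rox1/rox2-/-, against 58.7 and 71.5 CPM in rox1-/- (log2 fold change 0.99, adjusted p 0.0353, edgeR). NCAS0C04890 had 100.0 and 94 CPM in rox1/rox2-/- and 23.3 and 22.4 CPM in rox1-/-, a wide gap that missed the threshold (adjusted p 0.0508, edgeR).

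Lists of ribosome synthesis and the cell surface were among those with the lowest medians, and none of their genes was called. Ribosome biogenesis genes had the lowest median log2 fold change of all lists, -0.67 over 108 genes. In 92 of them both rox1/rox2-/- libraries lay below both rox1-/- libraries, against 30.6% of all genes. At an unadjusted p under 0.05, 10 were lower and none higher, a share near the 10.3% of all genes that were lower. The fit to 10 libraries called 61 lower and none higher, against 9.12% and 5.89% of all genes. The median lay between -0.77 and -0.53 when 1 library was left out. DBP2, an RNA helicase of rRNA processing and mRNA decay, had 543 and 562 CPM in rox1/rox2-/- and 1369 and 1537 CPM in rox1-/- (log2 fold change -1.39, adjusted p 0.0636, edgeR). NSR1, a nucleolar protein of small-subunit assembly, had 1212 and 1229 CPM in rox1/rox2-/- and 3717 and 2642 CPM in rox1-/-. REA1, an ATPase that releases assembly factors from the large subunit, had 452 and 448 CPM in rox1/rox2-/- and 941 and 1230.0 CPM in rox1-/-. Cytosolic ribosomal protein genes had a median of -0.41 over 108 genes. At an unadjusted p under 0.05, 6 were lower, a share below the 10.3% of all genes. That median rested on 1 library, since it was -0.04 without rox1-/- replicate 1 and -0.60 without rox1-/- replicate 2.

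Of 33 cell wall genes, none was called, 15 were lower and 1 higher at an unadjusted p under 0.05, and 12 were called lower in the fit to 10 libraries. Their median log2 fold change was -0.49, and it was -0.18 without rox1-/- replicate 1. SCW4, a glucanase-like wall protein, had 817 and 688 CPM in rox1/rox2-/- and 2036 and 1327 CPM in rox1-/- (log2 fold change -1.16, adjusted p 0.0675, edgeR). DSE2, a daughter-cell wall protein, had 109 and 124 CPM in rox1/rox2-/- and 292 and 156 CPM in rox1-/-. Of 16 genes of adhesion and filamentous growth, 10 were lower and none higher at that level, with a median of -0.56 and of -0.32 without rox1-/- replicate 1. MGA1, a regulator of filamentous growth, had 4.49 and 3.55 CPM in rox1/rox2-/- and 11.7 and 11.8 CPM in rox1-/- (log2 fold change -1.54, adjusted p 0.066, edgeR). AGA1, the anchor of the mating agglutinin, had 85.3 and 84 CPM in rox1/rox2-/- and 229 and 118 CPM in rox1-/-, where the 2 rox1-/- libraries lay far apart. Of 29 oxidative stress genes, 10 were lower and 1 higher at an unadjusted p under 0.05. Their median of -0.29 became -0.03 without rox1-/- replicate 1. With scaling by total counts it was 0.03, where the median of all genes moved to 0.30. Relative to all genes the list then stood at -0.27. SRX1, for sulfiredoxin, had 22.3 and 30.8 CPM in rox1/rox2-/- and 90.9 and 51.2 CPM in rox1-/- (log2 fold change -1.42, adjusted p 0.0748, edgeR).

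**Figure D4:**
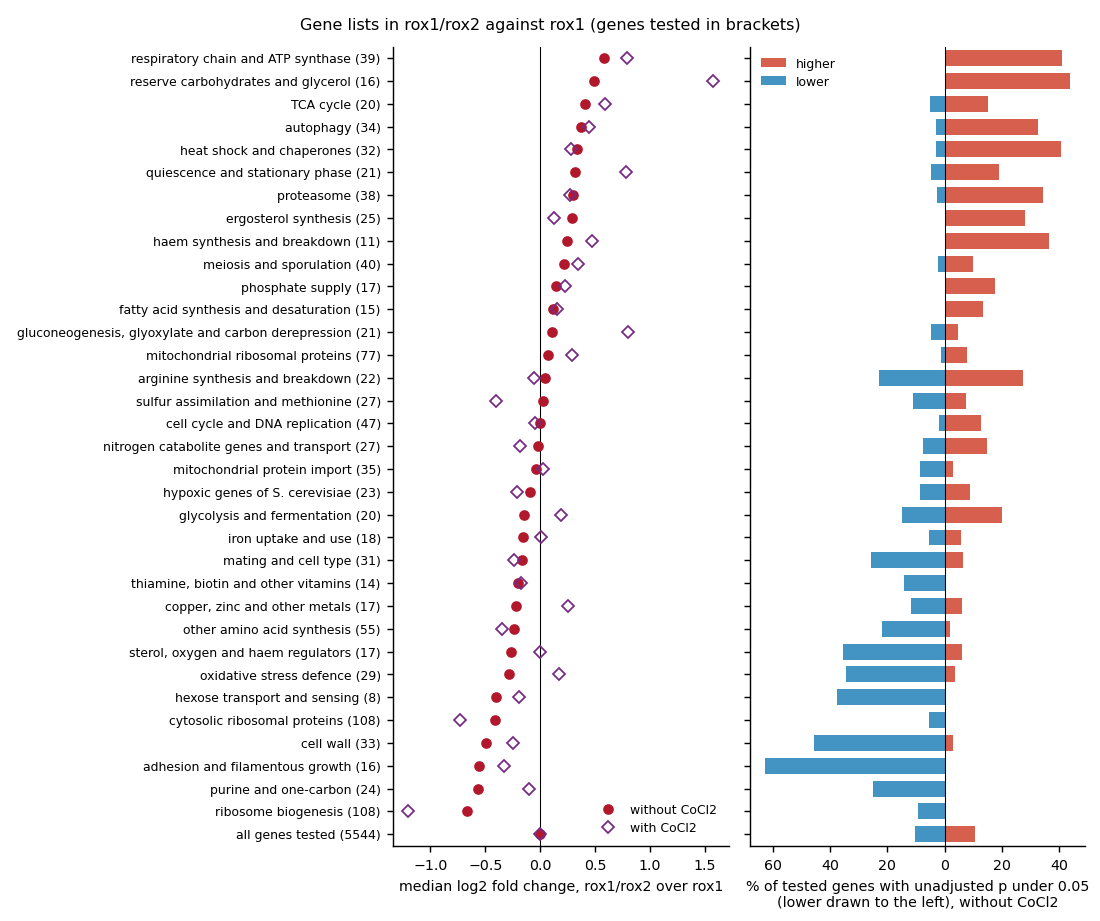
Left, median log2 fold change of each of 34 gene lists and of all genes in rox1/rox2 over rox1, without CoCl2 (filled circles) and with CoCl2 (open diamonds); right, percentage of each list's tested genes with an unadjusted p under 0.05 without CoCl2, higher to the right and lower to the left. The medians without CoCl2 run from 0.58 for the respiratory chain to -0.67 for ribosome biogenesis.

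Genes that S. cerevisiae induces in hypoxia were about evenly split between higher and lower. Of 23, none was called, and 2 were higher and 2 lower at an unadjusted p under 0.05, against 10.4% and 10.3% of all genes. In the fit to 10 libraries 1 was called higher and 4 lower, against 5.89% and 9.12% of all genes. Their median log2 fold change was -0.10, and it was 0.11 without rox1-/- replicate 1. With scaling by total counts it was 0.20, where the median of all genes moved to 0.30. Relative to all genes the list then stood at -0.10. HEM13, for the oxygen-requiring coproporphyrinogen oxidase and a textbook Rox1 target, had 397 and 370.1 CPM in rox1/rox2-/- and 289 and 209 CPM in rox1-/- (log2 fold change 0.63, adjusted p 0.164, edgeR). CYC7, the hypoxic form of cytochrome c, had 31.1 and 33.9 CPM in rox1/rox2-/- and 13 and 16.6 CPM in rox1-/- (log2 fold change 1.13, adjusted p 0.157, edgeR). ANB1, for the hypoxic form of eIF5A, had 368 and 336 CPM in rox1/rox2-/- and 464 and 543 CPM in rox1-/- (log2 fold change -0.52, adjusted p 0.371, edgeR). TIR3, for a wall mannoprotein of anaerobic cells, had 995 and 879 CPM in rox1/rox2-/- and 2337 and 1497 CPM in rox1-/- (log2 fold change -1.03, adjusted p 0.0636, edgeR). AUS1, a sterol importer, had a log2 fold change of 0.21 (SE 0.26). HMX1, for haem oxygenase, had 1.19 and 1.77 CPM in rox1/rox2-/- and 2.8 and 1.26 CPM in rox1-/-. With CoCl2, 2 of the 23 were called higher and none lower, against 2.96% and 1.44% of all genes. CYC7 was among these 2 (log2 fold change 1.56, adjusted p 0.0419, edgeR).

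No gene of sterol or haem synthesis was called. Of 25 ergosterol genes, 7 were higher and none lower at an unadjusted p under 0.05, and 7 were called higher in the fit to 10 libraries. In 19 both rox1/rox2-/- libraries lay above both rox1-/- libraries, which held for 32.2% of all genes. ERG8, for phosphomevalonate kinase, had 55 and 60.2 CPM in rox1/rox2-/- and 40.9 and 34.5 CPM in rox1-/- (log2 fold change 0.61, adjusted p 0.0636, edgeR). ERG11, for lanosterol demethylase, the P450 enzyme that Dap1 helps, had 549 and 493 CPM in rox1/rox2-/- and 456 and 449.9 CPM in rox1-/- (log2 fold change 0.20, adjusted p 0.531, edgeR). Of 11 haem genes, 4 were higher and none lower at that level, and 2 were called higher in the fit to 10 libraries. Of 17 regulators of the oxygen, haem and sterol response, 1 was higher and 6 lower, and that fit called 3 lower. Their median of -0.27 became -0.06 without rox1-/- replicate 1. With scaling by total counts it was 0.04, where the median of all genes moved to 0.30. Relative to all genes the list then stood at -0.26. MOT3 had 47.6 and 53.6 CPM in rox1/rox2-/- and 101 and 65.6 CPM in rox1-/- (log2 fold change -0.72, adjusted p 0.0846, edgeR). UPC2, the activator of sterol genes, had 121 and 115 CPM in rox1/rox2-/- and 203 and 179 CPM in rox1-/- (log2 fold change -0.70, adjusted p 0.145, edgeR). TUP1 and HAP1 had log2 fold changes of 0.29 and -0.16.

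The same 2 genotypes were also compared in 4 other libraries, after 2 h in CoCl2, which share no library with the comparison above. There 244 genes were called (4.4%), 164 higher (2.96%) and 80 lower (1.44%), and 240 of the 244 had the same sign without CoCl2. Of the 18 genes called without CoCl2, 15 had the same sign with it. The share of all genes with the same sign was not counted, so no conclusion is drawn from these sign counts. Of the 18, 7 were called in both. Those 7 were DAP1, APN1 and COX9, which rose, and NCAS0E02010, NCAS0C04230, MAE1 and NCAS0F02550, which fell. MAE1 had 37.7 and 71.4 CPM in rox1/rox2-/- and 291 and 355 CPM in rox1-/- with CoCl2 (log2 fold change -2.57, adjusted p 0.0198, edgeR). ARG3 had no such gap with CoCl2, at 22.5 and 21.1 CPM in rox1/rox2-/- and 24.4 and 19.2 CPM in rox1-/- (log2 fold change 0.00). CAR1 had 582 and 472 CPM in rox1/rox2-/- and 261 and 250.3 CPM in rox1-/- (adjusted p 0.0692, edgeR). Across the 5544 genes the log2 fold changes of the 2 comparisons had a Pearson r of 0.68 and a Spearman rho of 0.66, as a description of genes that are not independent replicates.

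Some fold changes were larger with CoCl2, but none of the differences was called. HSP26, a small heat shock protein named after its values were seen, had log2 fold changes of 2.88 with CoCl2 and 2.28 without. GSY1 had 153 and 43.6 CPM in rox1/rox2-/- and 7.62 and 7.81 CPM in rox1-/- with CoCl2 (log2 fold change 3.68, adjusted p 0.0329, edgeR). The median of the 16 reserve carbohydrate genes was 1.58 with CoCl2, where 10 of them were called higher, against 2.96% of all genes. That of the 108 ribosome biogenesis genes was -1.20, where 2 were called lower, a share near the 1.44% of all genes. The difference between the effects with and without CoCl2 was itself tested for each gene. edgeR called 0 genes, with 260 (4.69%) at an unadjusted p under 0.05, and DESeq2 and edgeR's likelihood ratio test called 2 each. For ARG3 that difference was 2.54 on the log2 scale (adjusted p 0.808, edgeR) and for GSY1 0.88 (adjusted p 0.819, edgeR). The count of 244 with CoCl2 also moved with single libraries, as it was 0 without rox1/rox2-/- replicate 1 of that set, where 543 genes had an unadjusted p under 0.05 (edgeR), and 1220 without its replicate 2. Without rox1-/- replicate 2 of that set 13 genes were called, all lower. Without single libraries that had no CoCl2 it was 13 to 15 (WT), 18 (rox1/rox2-/-), 65 (rox1-/-), and 79 and 136 (rox2-/- replicates 1 and 2). With scaling by total counts it was 553 (486 higher, 67 lower).

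Loss of ROX2 in cells that still have ROX1 was measured in rox2-/- against WT, again with no shared library. There 4 genes were called (0.0722%), 1 higher (0.018%) and 3 lower (0.0541%). The count was 1 or 2 without any single WT, rox1/rox2-/- or rox1-/- library without CoCl2 or without rox2-/- replicate 1 or 2. It was 23 (18 higher, 5 lower) without rox2-/- replicate 3, 12 (8 higher, 4 lower) without replicate 2 of rox1/rox2-/- with CoCl2 and 82 (59 higher, 23 lower) in the fit to 10 libraries. MSS11, a regulator of flocculation and filamentous growth, was the 1 higher, and ALD6, CAR2 and NCAS0E02010 were lower. Of the 18 genes called without ROX1, 11 had the opposite sign in rox2-/- against WT, and 1, NCAS0E02010, was called there. The share of all genes with opposite signs was not counted, so no conclusion is drawn from the 11. Across genes the log2 fold changes of the 2 comparisons had a Pearson r of 0.05 and a Spearman rho of 0.06. MSS11 had 44.9 and 46.8 CPM in rox1/rox2-/-, 64.3 and 58 CPM in rox1-/- and 53.2, 63.2 and 57.1 CPM in rox2-/-, against 12.5, 17.8 and 12.7 CPM in WT, so that all 3 deletion genotypes lay above WT and the loss of ROX2 from rox1-/- cells came with no further rise (log2 fold change -0.42, adjusted p 0.219, edgeR).

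**Figure D5:**
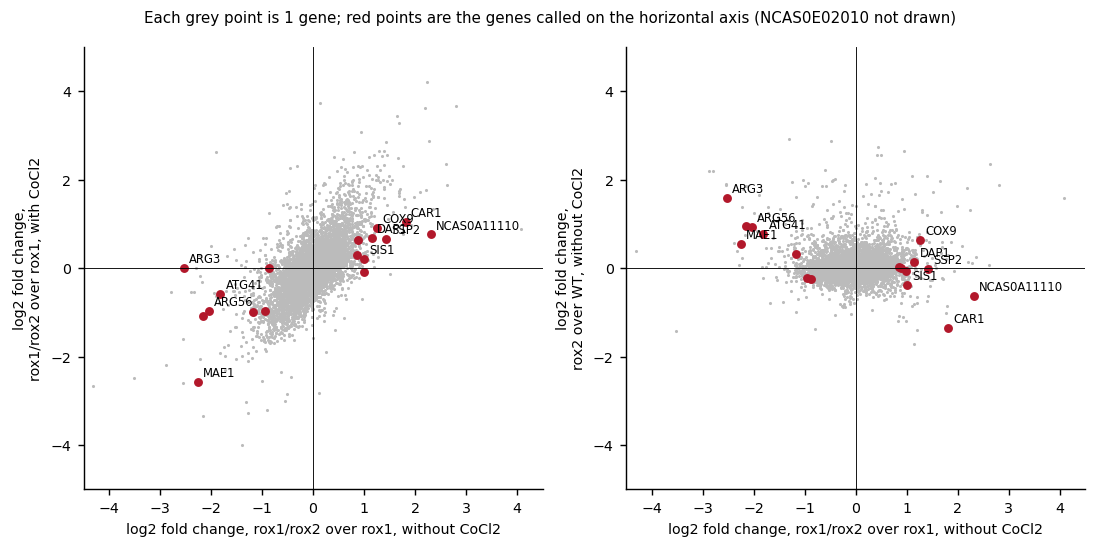
Log2 fold change of each gene in rox1/rox2 over rox1 without CoCl2 (horizontal) against that in rox1/rox2 over rox1 with CoCl2 (left, vertical) and in rox2 over WT (right, vertical); red points are the called genes apart from NCAS0E02010. ARG3, ARG56, MAE1 and ATG41 lie left of 0 on the horizontal axis and above 0 on the vertical axis of the right panel, while CAR1 lies right of 0 and below 0.

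Whether the change with ROX2 loss differed between cells without and with ROX1 was tested gene by gene as the difference of the 2 log2 fold changes, without ROX1 minus with ROX1. The test called 22 genes (0.397%), 8 higher (0.144%) and 14 lower (0.253%). In 21 of them the 2 effects had opposite signs, which choosing genes by a large difference makes likely. The share over all genes was not counted, so no conclusion is drawn from it. Of the 18 genes of the main comparison, 9 were among the 22. Arginine genes held 5 of the 22: ARG3, ARG56 and ARG8 were lower and CAR1 and CAR2 higher in the difference. ARG3 fell by 2.53 without ROX1, while with ROX1 it had 178, 203 and 77.3 CPM in rox2-/- and 48.6, 57.8 and 47 CPM in WT (log2 fold change 1.58), which gave a difference of -4.12 (SE 0.46, adjusted p 0.00103, edgeR). CAR1 had 92.6, 95.2 and 166 CPM in rox2-/- and 299.6, 309 and 294 CPM in WT (log2 fold change -1.36), a difference of 3.17 (SE 0.42, adjusted p 0.00399, edgeR). In all 5 genes both rox1-/- and rox2-/- means lay on the other side of WT from the rox1/rox2-/- mean. These genes were picked by a large difference in the same libraries, which makes such an order likely. In the 3 genes of synthesis, rox2-/- replicate 3 lay well below the other rox2-/- libraries.

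Chaperone genes held 3 of the 22. STI1 had 755 and 793 CPM in rox1/rox2-/- and 330.3 and 370.0 CPM in rox1-/-, while with ROX1 present it had 242, 233 and 235 CPM in rox2-/- and 421, 378 and 439.5 CPM in WT (difference 1.95, adjusted p 0.0129, edgeR). AHA1, an activator of the Hsp90 ATPase, had 576 and 562 CPM in rox1/rox2-/- and 322 and 255 CPM in rox1-/-, and with ROX1 present 116, 134 and 145 CPM in rox2-/- and 295, 276 and 329.5 CPM in WT (difference 2.17, adjusted p 0.0129, edgeR). SIS1 also differed, with a difference of 1.39 (adjusted p 0.0199, edgeR). The heat shock list as a whole had a median of 0.33 without ROX1 and of -0.24 with ROX1. ALD6, for the cytosolic aldehyde dehydrogenase that makes acetate, had 1709 and 1447 CPM in rox1/rox2-/- and 978 and 683 CPM in rox1-/-, and with ROX1 present 506, 464 and 534 CPM in rox2-/- and 1048, 1047 and 1137 CPM in WT (difference 2.03, adjusted p 0.00399, edgeR).

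Among the genes lower in the difference, MGA1 had 15.7, 19.3 and 16.9 CPM in rox2-/- and 5.85, 9.67 and 9.18 CPM in WT, opposite in direction to its values without ROX1 (difference -2.61, adjusted p 0.0199, edgeR). MAE1 had 292, 302 and 129 CPM in rox2-/- and 164, 176 and 152 CPM in WT, where rox2-/- replicate 3 lay below WT and the other libraries of its group above (difference -2.82, adjusted p 0.0214, edgeR). MSS11 had a difference of -2.43 (adjusted p 0.000443, edgeR). Of the others, 5 genes of the 22 have no symbol. The count of 22 was 5 and 8 without rox1/rox2-/- replicate 2 and 1, 7 without rox1-/- replicate 1, 220 without rox1-/- replicate 2 and 60 without rox2-/- replicate 3. It was 14, 13, 8, 14 and 12 without rox2-/- replicates 1 and 2 and WT replicates 1, 2 and 3, and 41 and 40 without rox1-/- replicate 1 and 2 with CoCl2.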

How the data were processed

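The authors deposited raw read counts, with 1 entry per exon and 5 counter entries per library. The submitters' processing notes name TopHat2 and HTSeq 0.6.0. No genome build, annotation or counting strand is named in the sources used here. Libraries were strand-specific, with single-end reads of 42 bp, per the labels. The 5852 exon entries were summed to 5648 genes and the counter entries were dropped. A RefSeq table (assembly ASM23734v1) covered 5589 genes and supplied symbols for 4484 of them, and gene order. The 6 libraries of the oxygen experiment were not used. Reads matching several places were not counted, at 29.2 and 29.8 per 100 gene counts in rox1/rox2-/- and 30.1 and 28.8 in rox1-/-, so levels of near-identical genes are uncertain.

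All 18 libraries of the deletion experiment entered 1 fit with 1 mean for each of 8 groups, because 6 groups have 2 libraries. It used edgeR 4.0.16 in R 4.3.3 (TMM, filterByExpr with a minimum of 10 counts, glmQLFit, glmQLFTest, two-sided), which kept 5544 genes, with a biological coefficient of variation of 0.199. Adjusted p-values are Benjamini-Hochberg over all genes tested. SE is the absolute log2 fold change divided by the square root of F. The fit was tested on simulated counts with known changes first. Alternatives were other scalings, no filter, DESeq2 1.42.0, edgeR's likelihood ratio test, fewer libraries, a replicate block, a gene length correction and leaving out 1 library. The rox2-/- and WT libraries with CoCl2 were not left out singly. Intervals and floors cover counting error only.

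Genes named are the 10 largest called rises and falls with a mean of at least 16 CPM and no overlap, filled up by smallest p, then the 3 members of each of 34 lists with the smallest p, the genes within 3 places of ROX1 and NCAS0E02010, a set of ROX1-related genes, and the genes called in the difference tests. Members and lists, written by S. cerevisiae symbol, were chosen with earlier results of these data known. The values of 1 listed gene are not reported here.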

Additional observations from a re-analysis of the deposited data

Results flagged for a closer look

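In 22 genes the effect of losing ROX2 differed between cells without and with ROX1 by a test of the difference itself (edgeR, adjusted p under 0.05). Values are the log2 fold change of rox1/rox2-/- over rox1-/- minus that of rox2-/- over WT. Among genes of arginine metabolism the difference was -4.12 for ARG3, -2.97 for ARG56, -2.42 for ARG8, 3.17 for CAR1 and 2.58 for CAR2, and it was 2.86 for ALP1, for a permease of basic amino acids. Chaperone genes gave 2.17 for AHA1, 1.95 for STI1 and 1.39 for SIS1. Regulators of filamentous growth gave -2.43 for MSS11 and -2.61 for MGA1. In carbon metabolism and transport it was 2.03 for ALD6, -2.82 for MAE1 and -1.69 for MCH1, for a relative of monocarboxylate permeases. The remaining genes with a symbol were ATG41 at -2.60, LAF1 at -1.35 and DAP1 at 1.01. Genes without a symbol were NCAS0A02080 at -3.11, NCAS0A04610 at -3.60, NCAS0C05370 at -3.54, NCAS0C04230 at -1.51 and NCAS0A10850 at -2.11. NCAS0C05370 had 21.2 and 16.6 CPM in rox1/rox2-/- and 75.4 and 65.8 CPM in rox1-/-, and with ROX1 present 151, 260.5 and 162 CPM in rox2-/- and 41.3, 53.1 and 89.6 CPM in WT. Groups of 2 or 3 libraries are too small to look for single outlying libraries by a gap test.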

How the results depend on the processing

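Counts of called genes moved widely between fits. The 18 genes kept their sign in every fit, which was likely, as the 2 groups did not overlap in them. Their number was 356 with DESeq2 (171 higher, 185 lower), 268 with edgeR's likelihood ratio test, 262 in a fit to the 4 libraries alone (96 higher, 166 lower), 826 in a fit to the 10 libraries without CoCl2, and 31 with a replicate block (16 higher, 15 lower). It was 16 to 23 with RLE scaling, total counts, no filter or a length correction. With total counts 17 were higher and 6 lower, and the median log2 fold change of all genes moved to 0.30. Leaving out 1 library gave 0 to 506. The count of 22 genes that differed with ROX1 was 138 with DESeq2, 319 in the fit to 10 libraries and 117 with the likelihood ratio test, and 5 to 220 when 1 library was left out. The count of 0 genes that differed with CoCl2 was 2 with DESeq2, 2 with the likelihood ratio test and 0 to 60 when 1 library was left out. In rox1/rox2-/- against rox1-/- with CoCl2 the count was 940 (522 higher, 418 lower) with DESeq2, and in rox2-/- against WT it was 65 (46 higher, 19 lower). The highest of each range, 506, 220 and 60, came without rox1-/- replicate 2, and the cause was not tested.

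Replicate numbers were not taken to pair libraries: same-numbered rox1/rox2-/- and rox1-/- libraries had deviations correlated at 0.07, and the block gave 30 genes that differed with ROX1, 0 that differed with CoCl2, 753 with CoCl2 (244 without the block) and 8 in rox2-/- against WT (4 without the block).

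Genes that changed sign were all uncalled. With total counts the log2 fold change was 0.0067 for RIB3, 0.037 for ECM22, 0.14 for HAP1, 0.13 for FAA2 and 0.26 for FCY1. FCY1 was 0.035 with the replicate block. Leaving out 1 library gave -0.74 to 0.077 for GRX3, -0.85 to 0.21 for SUT1, -0.91 to 0.26 for HMX1 and -0.19 to 0.28 for FCY1.

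The limits are 2 libraries per group, a spread estimate that depends on which other groups are fitted, and the lower depth of the rox1/rox2-/- libraries. A gene that missed the threshold is not shown to be unchanged.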

Other observations

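Genes that CoCl2 moved in WT were compared with the loss of ROX2 from rox1-/- cells, which shares no library with that response. WT with CoCl2 against WT called 2607 genes (47.0%). Of 822 genes at least 2-fold higher there and called, 6 were called higher and 1 lower in rox1/rox2-/- against rox1-/-, 177 were higher and 30 lower at an unadjusted p under 0.05, and the median log2 fold change was 0.35. Of 429 genes at least 2-fold lower with CoCl2, 1 was called higher and 1 lower, 11 were higher and 95 lower at that level, and the median was -0.43. Both sets were chosen after the data were seen. When 1 library was left out the medians lay between 0.32 and 0.41 and between -0.50 and -0.21, the last without rox1-/- replicate 1. Across genes the 2 comparisons had a Pearson r of 0.36 and a Spearman rho of 0.43.

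No gene was called in the lists that follow, and their counts are at an unadjusted p under 0.05, which 10.4% of all genes passed as higher and 10.3% as lower. Purine and one-carbon genes had 6 of 24 lower and none higher, with a median log2 fold change of -0.57, the second lowest of the 34 lists, and of -0.36 without rox1-/- replicate 1. Hexose transport and sensing had 3 of 8 lower and none higher, with a median of -0.41 and of -0.10 without rox1-/- replicate 1. URA1, for dihydroorotate dehydrogenase, which works without oxygen in S. cerevisiae, had 39.1 and 45.2 CPM in rox1/rox2-/- and 104 and 83.5 CPM in rox1-/- (adjusted p 0.0942, edgeR), and FUR4, the uracil permease, had 75.6 and 75.7 CPM in rox1/rox2-/- and 174 and 193 CPM in rox1-/- (adjusted p 0.0636, edgeR). Of 31 mating genes, 8 were lower and 2 higher. Of 47 genes of the cell cycle and DNA replication, 6 were higher and 1 lower, the lower being CLN3, the G1 cyclin that links growth to division, with 47 and 44.2 CPM in rox1/rox2-/- and 141 and 119 CPM in rox1-/- (log2 fold change -1.51, adjusted p 0.104, edgeR). Of 77 mitochondrial ribosomal protein genes, 6 were higher and 1 lower. PAI3, the inhibitor of the vacuolar proteinase A, had 197 and 193 CPM in rox1/rox2-/- and 18.3 and 95.8 CPM in rox1-/-, where the 2 rox1-/- libraries lay far apart.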
